A study of Caenorhabditis elegans with 6 samples.

Results

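Of the 8836 UNC-55 binding regions in a combined ChIP-seq list from Caenorhabditis elegans, 302 spanned at least 1500 bp. These broad regions were selected on their width in that list, the end position minus the start position plus 1, so their width, and every measure that depends on it, is given as a description without a test. The worms were second larval stage hermaphrodites of strain NC1639. Their integrated transgene wdIs49 on chromosome III (pttr39::UNC-55a::GFP with dpy-20+, outcrossed 0 times per the labels) drives GFP-tagged UNC-55a from the ttr-39 promoter. Chromatin was precipitated with antibodies to GFP in 3 ChIP samples, replicates 1, 2 and 3, and 3 input samples were set aside before precipitation. All 6 samples carry the transgene, and per the labels the fusion is made in ventral cord GABA motor neurons and, ectopically, in some other cells. The labels do not tell whether replicates were grown as separate cultures, so the spread between them may be technical. The inputs have no region list among the files used here and no file holds read counts, so the depth is unknown and no region could be set against an input level.

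UNC-55 belongs to the COUP-TF family of nuclear receptors, which bind DNA directly and often repress transcription. In the ventral cord it acts in the VD motor neurons, where it prevents the synaptic remodelling that the DD motor neurons undergo in larvae. A region in these lists is a stretch that the peak caller PeakSeq marked as enriched, and a wide one can be a single long stretch or can join shorter ones. Positions are on the WormBase WS220 genome, counted from 1. The gene table used here belongs to another assembly, so no gene is named for any region and no sequence is shown.

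The broad regions were 3.42% of the combined regions and held 14.5% of their bases, 692 kb of 4790 kb. Their median width was 1950.5 bp with quartiles of 1683 and 2513 bp, against a median of 417 bp in the 8534 narrower regions. Of the 302, 138 reached 2000 bp, 44 reached 3000 bp, 21 reached 4000 bp and 6 reached 5000 bp. The narrowest members measured 1501 bp (X, 1344509 to 1346009, rank 17), 1505 bp (II, 759666 to 761170, rank 283) and 1506 bp (X, 5728659 to 5730164, rank 42). Just outside lay a region 1 bp short of the limit (I, 7474415 to 7475913, rank 58) and regions of 1495 bp (I, 9787489 to 9788983, rank 110) and 1495 bp (III, 12598226 to 12599720, rank 296). All 6 regions around the limit overlapped a region in each of the 3 replicates.

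Ranks here follow the authors' score for each region, a p-value or q-value from the caller that orders regions within a list, with 1 as the best. The median rank of the broad regions was 313.5 of 8836 with quartiles of 117 and 1032.5, against a median of 4561.5 for the narrower regions. Broad regions took 69 of the best 100 places, 112 of places 101 to 500, 42 of places 501 to 1000, 35 of places 1001 to 2000 and 32 of places 2001 to 4000. The remaining 12 ranked lower still. Width and score come from the same ChIP signal, so the one does not support the other. All 8 combined regions whose score was listed as 0 were broad. They are tied, and their places 1 to 8 follow the region number alone, as do those of the 2, 2 and 4 regions listed at 0 in replicates 1, 2 and 3. The median rank was 69.5 for the 44 members of at least 3000 bp, 223.5 for the 94 of 2000 to 2999 bp and 641 for the 164 under 2000 bp. Against this order, the worst-ranked member of all was 3156 bp wide (X, 6742887 to 6746042, rank 5895, named after its value was seen). It had 1 region in replicate 1, covering 80.6% of it, 1 in replicate 2, covering 29.0%, and none in replicate 3.

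**Figure D1:**
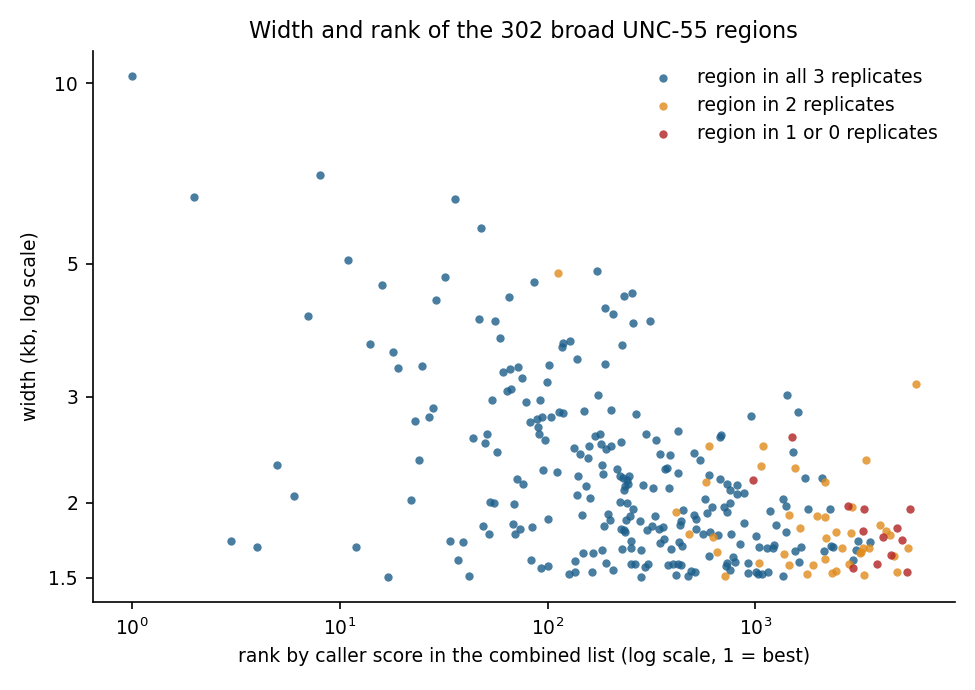
Each point is 1 of the 302 broad regions, with its rank by caller score in the combined list on the horizontal axis (log scale, 1 is best, places 1 to 8 tied at a score of 0) and its width in kb on the vertical axis (log scale). Colour gives the number of replicate lists with an overlapping region: the 69 broad regions among the best 100 were found in all 3 lists, and the 12 ranked beyond 4000 in at most 2.

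Each broad region was then set against the replicate lists, which held 6805 regions for replicate 1, 4909 for replicate 2 and 2803 for replicate 3. In replicate 1, 195 broad regions overlapped 1 region by at least 1 bp, 85 overlapped 2, 16 overlapped 3, 2 overlapped 4 or more and 4 overlapped none. In replicate 2 the counts were 190 with 1 region, 87 with 2, 6 with 3, 4 with 4 or more and 15 with none. In replicate 3 they were 184 with 1 region, 54 with 2, 10 with 3, 1 with more and 53 with none. A single region was thus the commonest state in every replicate, at 189.7 ± 5.51 broad regions (SD, n = 3). The number with none, 24 ± 25.7 (SD, n = 3), varied far more and was highest in the shortest list.

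Broad regions were broken into 2 or more replicate regions, called pieces below, 103 times in replicate 1, 97 times in replicate 2 and 65 times in replicate 3, or 29.2 ± 6.76% of the 302 (SD, n = 3). Among all combined regions the share was 1.87% in replicate 1, 1.48% in replicate 2 and 0.837% in replicate 3. Among the 3040 combined regions of 500 bp or more but under 1500 bp it was 2.04%, 1.12% and 0.296% in the same order. A wider region has room for more pieces, so these shares cannot be told apart from the width by which the members were chosen. In at least 1 replicate 154 broad regions (51.0%) were broken, against 2.74% of all combined regions. With the better-scored 50% of each replicate list the share of broad regions was 24.5%, and that of all combined regions was not counted at this setting. Of the 154, 76 were broken in 1 replicate, 45 in 2 and 33 in all 3. The commonest pattern was 1 region in each replicate, seen in 110 of the 302 (36.4%), and the next was 2 pieces in replicate 1 with 1 region in each of the other lists, seen in 27.

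**Figure D2:**
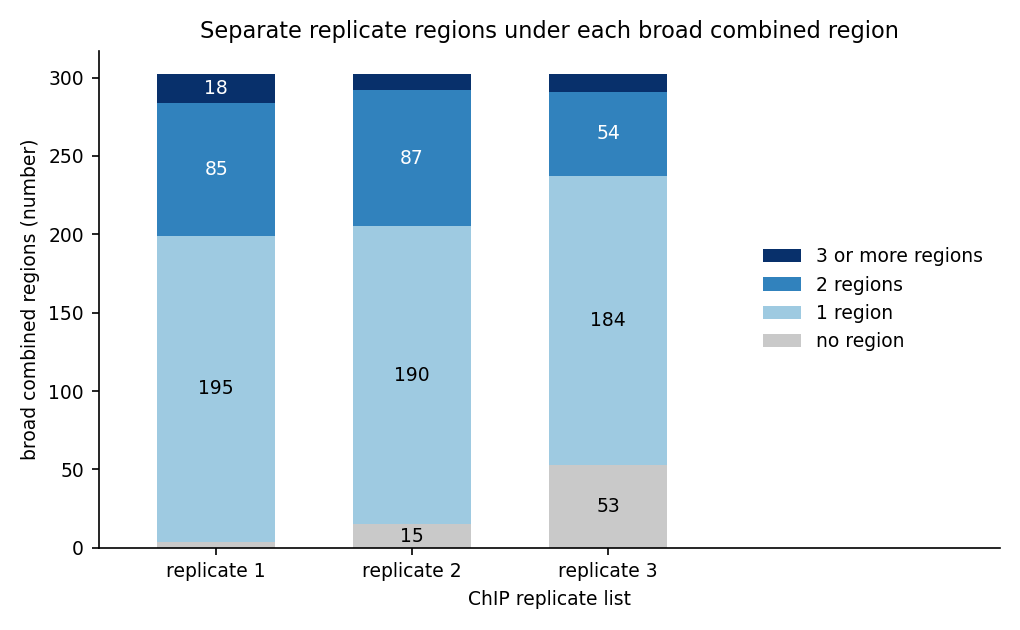
Stacked bars count the 302 broad regions by the number of separate regions they overlapped in the list of replicate 1, 2 or 3 (overlap of at least 1 bp). In each replicate the largest class is 1 region (195, 190 and 184), and the class with no region is largest in replicate 3, at 53.

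The broken share went with width within the broad regions too. At least 1 replicate broke 38 of the 44 members of 3000 bp or more (86.4%), 65 of the 94 of 2000 to 2999 bp (69.1%) and 51 of the 164 under 2000 bp (31.1%). In the widest class 29 were broken in replicate 1, 31 in replicate 2 and 26 in replicate 3. The 6 members of that class with no break anywhere included the ones at 11694509 on chromosome IV and at 5334386 on chromosome II, both described below, and the low-ranked X region above.

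The widest broad region spanned 10294 bp of chromosome I, 5371818 to 5382111, and was one of the 8 with a score listed as 0. Replicate 1 covered it with 1 region of 9566 bp, replicate 2 with 1 region of 8359 bp, and replicate 3 with 3 regions of 1678, 3738 and 1475 bp. The middle one of these 3 had the best score, with rank 30 in its list. The stretch was continuous in the longer lists and broken in the shortest.

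The next in width, 7045 bp of chromosome III from 5754221 to 5761265, was another of the 8 listed at 0 and had more pieces over the replicates than any other member, 12 in all. They were 3 in replicate 1, 3 in replicate 2 and 6 in replicate 3. Its longest piece measured 4302 bp in replicate 1, 4307 bp in replicate 2 and 2233 bp in replicate 3. The 6 pieces of replicate 3 were 515, 209, 478, 2233, 443 and 639 bp long from left to right. Near the right end the pieces stopped at 5760375, 5760220 and 5760309 and resumed at 5760610, 5760648 and 5760615 in replicates 1, 2 and 3, so this break overlapped in all of them.

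A region of 6464 bp on chromosome IV, 11694509 to 11700972 and also among the 8 listed at 0, was unbroken everywhere. Its single region was 6457 bp long in replicate 1, 6463 bp in replicate 2 and 6455 bp in replicate 3, and its score was listed as 0 in all of them, tied with the others listed at 0. Its left edges lay within 7 bp of one another and so did its right edges. Among the 246 broad regions found in all 3 replicates it was the only one with both edges within 10 bp, and 13 had both within 100 bp. The median spread of the 3 replicates was 272 bp at the left edge and 331 bp at the right edge. Edges of narrower regions were not compared, so these counts and spreads have no values to be set against. With the transgene in every sample and no input level at hand, whether transgene sequence contributes to the 6464 bp region was not tested.

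The other members among the 10 widest lay between these extremes. On chromosome II a region of 6419 bp (10546064 to 10552482, rank 36) had 3 pieces in replicate 1 covering 84.3% of it, 4 in replicate 2 covering 59.7% and 3 in replicate 3 covering 39.0%. On chromosome III a region of 5736 bp (3953181 to 3958916, rank 48) had 4 pieces covering 65.8%, 4 covering 72.9% and 3 covering 18.7% in replicates 1, 2 and 3. Both were broken in every list. The region of 4759 bp on chromosome II (5334386 to 5339144, rank 32), the best-scored of that chromosome, stayed in 1 piece throughout, of 3508, 2920 and 2697 bp in replicates 1, 2 and 3. Each of these single regions was shorter than the broad region, and the uncovered bases lay at its ends.

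A region of 5068 bp on chromosome I (9379244 to 9384311, rank 11) had 2 pieces in replicate 1, 2 in replicate 2 and 3 in replicate 3, which covered 93.0%, 92.6% and 64.0% of it. On chromosome V, 8166382 to 8171245 (4864 bp, rank 173) had 5 pieces in replicate 1, the most in that list, and 2 in each of the others, with 70.2%, 52.5% and 37.7% covered. The chromosome IV region at 17277136 to 17281807 (4672 bp, rank 86) had 2, 2 and 1 pieces, with 68.2%, 48.5% and 15.9% covered. In all 3 of these regions the covered share was lowest in replicate 3.

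**Figure D3:**
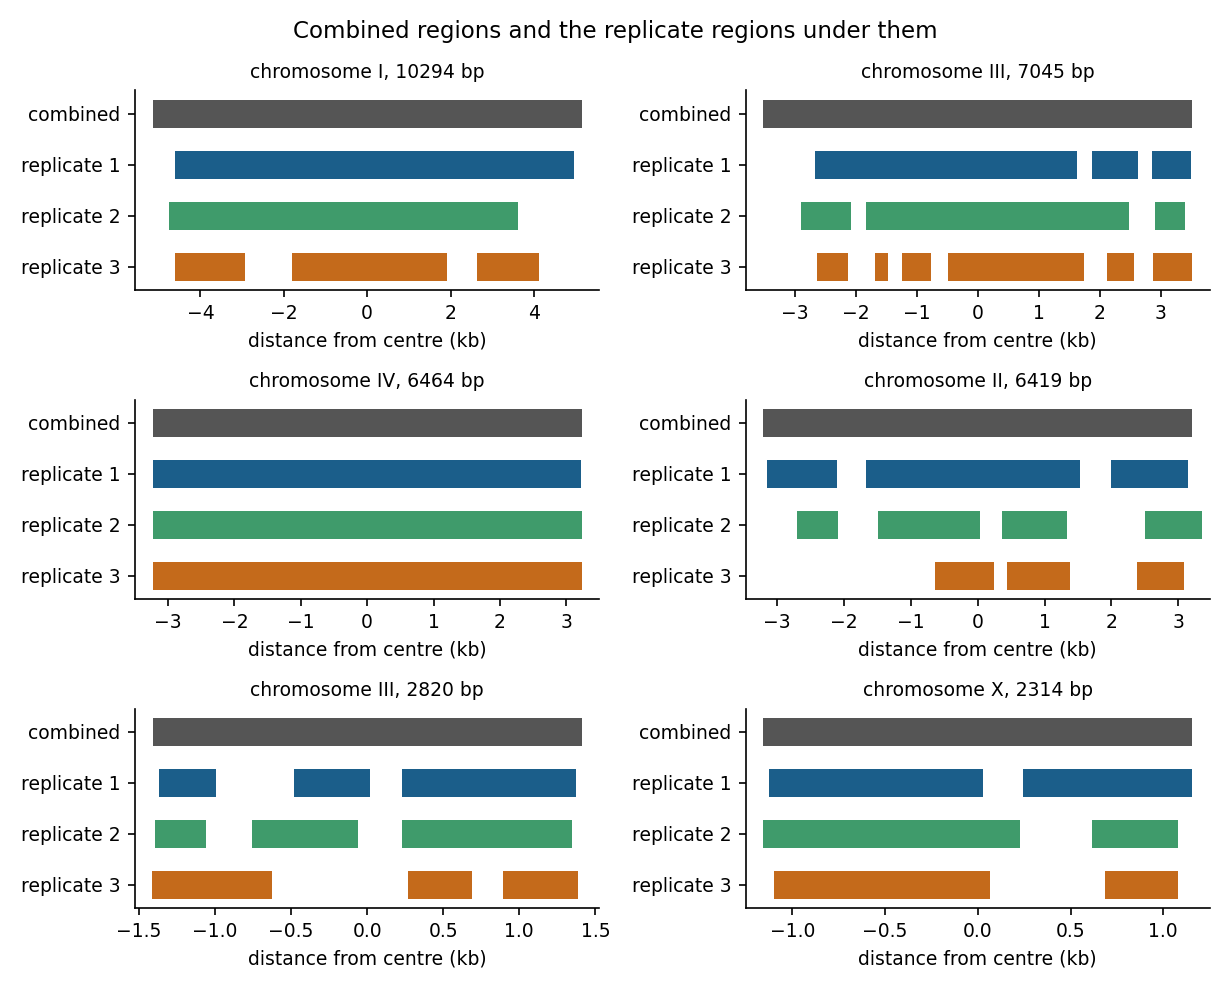
Bars show 6 broad regions (the 4 widest, the last of the 5 with most pieces and an isolated one on X), with the combined region on top and the regions of replicates 1, 2 and 3 below it, by distance in kb from the centre of the combined region. The one on chromosome IV (6464 bp) has a bar of nearly the same extent in every list, while the one of 7045 bp on chromosome III has 3, 3 and 6 pieces.

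Coverage of the broad regions fell in the same order as the length of the replicate lists. The median share of a broad region under replicate regions was 80.5% in replicate 1, 67.4% in replicate 2 and 39.2% in replicate 3, a mean of 62.4 ± 21.1% (SD, n = 3). For combined regions of 500 bp or more but under 1500 bp the medians were 84.9%, 67.8% and 0% in the same order. Regions absent from a replicate count as 0% in these medians. Over the broad regions found in each replicate they were 80.6%, 68.0% and 44.9%. The longest piece under a broad region had a median of 1406 bp over the 298 found in replicate 1, 1202 bp over the 287 found in replicate 2 and 797 bp over the 249 found in replicate 3. The replicate lists themselves held 130, 86 and 23 regions of at least 1500 bp, 79.7 ± 53.8 (SD, n = 3), of which 123, 85 and 22 overlapped a broad combined region. The combined list thus held more than 2 times as many broad regions as any replicate list. How the combined list was made from the replicates is not stated in these sources.

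The breaks between pieces were mostly short. There were 124 in replicate 1, 111 in replicate 2 and 79 in replicate 3, with medians of 292, 372 and 505 bp. Over all 314 breaks the median was 360.5 bp and the range 201 to 3367 bp. No list held neighbours less than 201 bp apart: the smallest gap was 201 bp in the combined list and 201, 202 and 203 bp in replicates 1, 2 and 3. When replicate regions at most 300 bp apart were joined before counting, 38.1% of the broad regions were still broken in at least 1 replicate.

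Breaks in different replicates mostly overlapped. A broad region was broken in both replicates of a pair 144 times, and in 128 of these (88.9%) a break in one overlapped a break in the other by at least 1 bp. Of the 33 regions broken in all 3 replicates, 26 had a break common to all. How much overlap the positions alone would give was not tested. An example is the X region at 11093538 to 11095851, 2314 bp wide with a score listed as 0, which had 2 pieces in every replicate. The left piece was 1152, 1390 and 1165 bp long in replicates 1, 2 and 3 and ranked 9, 10 and 14. The right piece was 914, 464 and 391 bp long and ranked 768, 1179 and 1091. A high-ranked and a lower-ranked piece thus stood side by side in the same order in all 3 lists.

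The 2820 bp region of chromosome III at 7532937 to 7535756 (rank 119) had 3 pieces in every list, and its outer edges lay within 41 and 39 bp over the replicates. The piece at its right end was the best-scored and longest in replicates 1 and 2, with 1140 and 1114 bp, whereas replicate 3 divided that end into 419 and 488 bp. The best-scored broad region of chromosome V, 9729718 to 9732455 (2738 bp, rank 23), had 2, 2 and 3 pieces in replicates 1, 2 and 3. Its leftmost piece was 409, 642 and 356 bp long and its longest 1960, 1750 and 788 bp. On X 5 broad regions were tied at a score listed as 0. Those at 2996211, 4208438 and 14525065 were in 1 piece in every replicate, that at 11093538 was in 2 pieces in every replicate, and that at 16927925 had 2, 2 and 1 pieces in replicates 1, 2 and 3. The one at 2996211 to 2997936, 1726 bp wide, was covered by regions of 1710, 1678 and 1592 bp, with ranks 3, 6 and 9. On chromosome V a region of 4411 bp (7816387 to 7820797, rank 65) had 2, 4 and 3 pieces, and 1 of its 3 pairs of replicates shared a break.

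Presence in every replicate depended on the overlap asked for. Of the 302, 246 (81.5%) overlapped a region in all 3 replicates, against 29.5% of all combined regions and 46.2% of those of 500 bp or more but under 1500 bp. The share of broad regions was 32.5% where each replicate had to cover 50% of the region. It was 40.1% where each replicate had to cover the midpoint of the broad region and have a region with at least 50% of its own width inside. Shares of all combined regions and of narrower ones were not counted at these stricter settings. Whether broad regions would still have the higher share there is thus not known. A wider region has more room for an overlap of 1 bp, so the shares at 1 bp depend on the width by which members were chosen. At an overlap of 1 bp, a further 43 were found in 2 replicates, 10 in 1 and 3 in none, the last being 0.993% of the broad regions against 24.4% of all combined regions. Most of the absences were in replicate 3: 40 broad regions lacked replicate 3 alone, 2 lacked replicate 2 alone and 1 lacked replicate 1 alone. Without replicate 3, 94.7% were found in both of the others. In all, 53 broad regions (17.5%) had no region in replicate 3, against 69.5% of all combined regions. The combined list comes from the same ChIP samples, so presence in the replicates is no independent check of it.

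The 56 members missing from a replicate had a median rank of 2526.5, against 232.5 for those found in all 3, and a median width of 1759 bp, against 2028.5 bp. The best-scored of them was also one of the 10 widest. It spanned 4829 bp of chromosome I, 10029650 to 10034478, ranked 112, and had 3 pieces in replicate 1 covering 64.2%, 2 in replicate 2 covering 84.4% and none in replicate 3. The next 4 by score were all on chromosome IV, at 16476003 to 16477933 (1931 bp, rank 413), 5952690 to 5954464 (1775 bp, rank 477), 6958525 to 6960685 (2161 bp, rank 581) and 3131820 to 3134303 (2484 bp, rank 596). Each of these had 1 to 3 pieces in replicate 1, 1 or 2 in replicate 2 and none in replicate 3. The 3 found in no replicate, named after their values were seen, were at 8575129 to 8576880 on I (rank 4126), 13027437 to 13029168 on IV (rank 5089) and 14612185 to 14613717 on IV (rank 5373).

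On chromosome IV 17 of 34 broad regions (50.0%) lacked replicate 3, against 36 of 268 (13.4%) on the other chromosomes, and 8 lacked replicate 2, against 7 of 268 (2.61%). The narrower regions of chromosome IV showed this as well: 86.1% of them lacked replicate 3, against 64.8 to 73.0% on each other chromosome. Among the broad regions ranked 1000 or better, 17 of 25 on chromosome IV were found in all 3 replicates, against 197 of 198 elsewhere. The 1 exception elsewhere was the chromosome I region at 10029650. The combined list also had no region in 1021189 bp of chromosome IV, 9998835 to 11020023, where the lists of replicates 1, 2 and 3 held 45, 39 and 21 regions, the widest of them 1236 bp. A stretch near the right end of chromosome I had a region of over 1500 bp in replicates 2 and 3 and none in replicate 1 or the combined list. The combined list may thus be incomplete at these places as used here, and the 302 and the counts for chromosomes I and IV are those of the list as it stands. What sets chromosome IV apart in these lists was not tested.

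Broad regions were also set beside narrower regions of like rank. In ranks 1 to 100 all 69 broad and all 31 narrower regions were found in all 3 replicates, and in ranks 101 to 500 it was 97.3% of broad and 99.3% of narrower regions. In ranks 501 to 1000 it was 36 of 42 broad regions (85.7%) and 443 of 458 narrower ones (96.7%), and without chromosome IV 33 of 33 and 384 of 385. In ranks 1001 to 2000 it was 23 of 35 (65.7%) and 812 of 965 (84.1%), and without chromosome IV 23 of 32 (71.9%) and 754 of 834 (90.4%). In ranks 2001 to 4000 it was 9 of 32 (28.1%) and 734 of 1968 (37.3%), and beyond rank 4000 0 of 12 and 51 of 4824.

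The broken share by rank was 62.3% of broad and 0% of narrower regions in ranks 1 to 100, and 64.3% and 3.47% in ranks 101 to 500. It was 42.9% of broad and 3.49% of narrower regions in ranks 501 to 1000, 40.0% and 2.59% in ranks 1001 to 2000, and 21.9% and 1.73% in ranks 2001 to 4000. Beyond rank 4000 none of the 12 broad regions and 3 of the 4824 narrower ones were broken. The shares of broad and narrower regions thus lay far apart down to rank 4000 and not beyond it. None of these shares was tested.

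Few broad regions were isolated when measured from edge to edge. The median gap to the nearest other combined region was 696 bp with quartiles of 355.5 and 1962.5 bp, against a median of 1927 bp for the narrower regions. A neighbour lay within 1000 bp of 188 broad regions (62.3%), against 33.9% of all combined regions. On both sides this held for 46 (15.2%), against 5.31% of the narrower regions. The nearest neighbour was at least 10000 bp away for 16 (5.30%), against 11.6% of all combined regions. By rank, the median gap was 1043 bp for broad and 1734 bp for narrower regions in ranks 1 to 100, 631 and 1938 bp in ranks 101 to 500, 559.5 and 2117.5 bp in ranks 501 to 1000, and 910 and 2247 bp in ranks 1001 to 2000. In ranks 2001 to 4000 it was 616 bp for broad and 2160.5 bp for narrower regions, and beyond rank 4000 440 and 1768 bp. Both the gap between edges and the distance between midpoints depend on the width by which members were chosen. From midpoint to midpoint the medians were 2402.5 bp for broad and 2445.5 bp for narrower regions. The quartiles between midpoints were 1839.2 and 3761.2 bp for broad regions and 1330.2 and 5661.6 bp for narrower ones. Broad regions thus lay farther from a neighbour at the lower quartile and closer at the upper. What sets these distances was not tested.

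**Figure D4:**
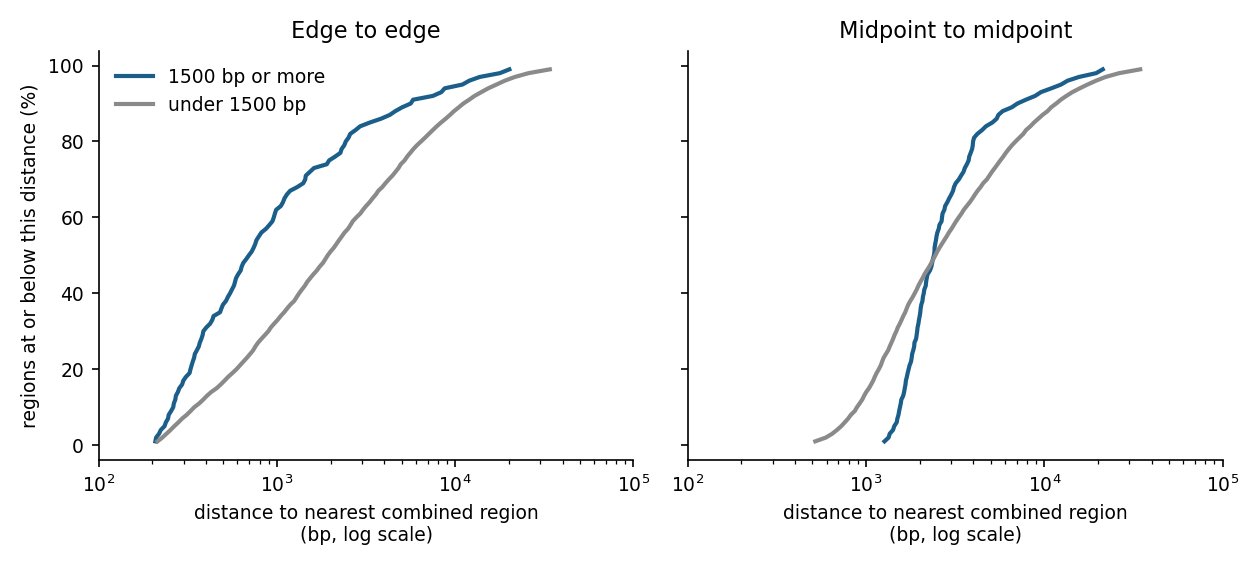
Curves give the percentage of regions whose nearest combined neighbour lies at or below the distance on the horizontal axis (bp, log scale), for regions of 1500 bp or more and for those under 1500 bp. Between edges (left) the broad regions lie closer to a neighbour, with medians of 696 and 1927 bp, while between midpoints (right) the curves cross near their medians of 2402.5 and 2445.5 bp.

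The most isolated broad region lay on chromosome V at 17005728 to 17007405, with 38752 bp to its neighbour on the left and 507042 bp on the right. It was 1678 bp wide, ranked 2600, and had 1 region in replicate 1 covering 56.8%, 1 in replicate 2 covering 18.1% and none in replicate 3. The next were the region at 1742845 to 1745862 of chromosome III, 31617 bp from its nearest neighbour, and the X region at 11093538 described above, 20564 bp from its nearest. The one on III was 3018 bp wide with rank 1416. It had pieces of 754, 802 and 259 bp in replicate 1 and a single piece at its left end in replicates 2 and 3, of 949 and 808 bp. Isolated broad regions thus included both low and high ranks.

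The closest neighbours stood beside the regions at 7190579 to 7192260 of III (203 bp away), 11241251 to 11242932 of X (205 bp) and 5805095 to 5806718 of IV (207 bp), all just above the smallest gap of 201 bp in the list. Their ranks were 3308, 1141 and 781, and they overlapped 0, 2 and 1 regions in replicate 1. Another broad region lay within 1000 bp of 39 of the 302. These formed 21 neighbouring pairs, of which 9 were on V, 7 on I, 3 on II, 1 on III, 1 on IV and 0 on X. How many narrower regions had a broad neighbour this close was not counted, so these counts have no share to be set against. A neighbour of any width lay within 1000 bp of 62.3% of broad and 33.9% of all combined regions. The run with most members held 4 broad regions in 8812 bp of chromosome I, 8573235 to 8582046.

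By chromosome, V held 69 broad regions, III and X held 55 each, II held 45, I held 44 and IV held 34. The 69 of V were 22.8% of the broad regions, against 17.3% of all combined regions. V is singled out here as the highest of the 6 chromosomes. It also held 9 of the 21 neighbouring pairs of broad regions, so its members are not independent of one another. Of the combined regions of a chromosome, broad ones were 4.51% on V, 3.68% on III, 3.31% on X, 3.05% on II, 3.02% on I and 2.79% on IV. V also came first with a width limit of 1200 bp, at 23.4% of the regions kept, and of 2000 bp, at 25.4%. Per length the order was another: III held 3.99 broad regions per Mb, V 3.31 and IV 1.95, or 2.07 on IV without the stretch that has no combined region. At least 1 replicate broke 61.8% of the broad regions of III, 60.0% of II, 55.1% of V, 43.2% of I, 41.8% of X and 38.2% of IV. A region absent from a replicate could not be broken there, and 17 of the 34 on IV lacked replicate 3, against 6 of the 55 on III. The broken share of all combined regions was not counted by chromosome.

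**Figure D5:**
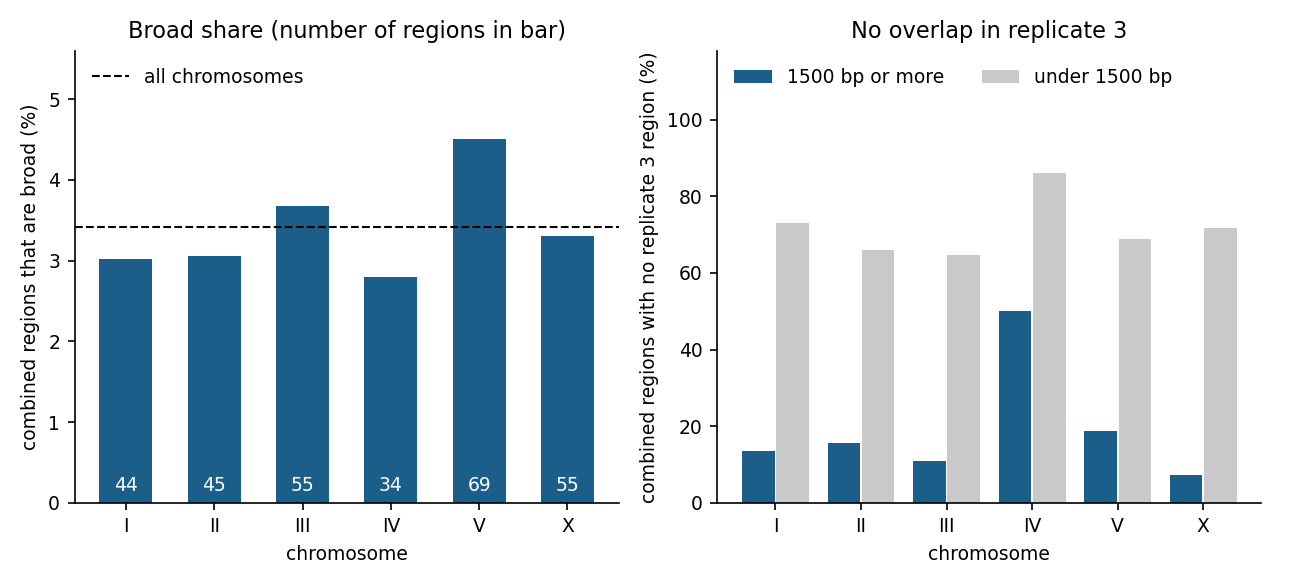
Left, the percentage of the combined regions of each chromosome that are at least 1500 bp wide, with their number in the bar and the percentage over all chromosomes (3.42%) as a dashed line. Right, the percentage of combined regions with no replicate 3 region, for those of 1500 bp or more and those under 1500 bp: chromosome IV is highest for both, at 50.0% and 86.1%.

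In 1 Mb of chromosome V, between 10 and 11 Mb, lay 13 broad regions, and no other 1 Mb bin held more than 7. The bin held 130 combined regions, and over the whole list 3.42% of combined regions were broad. For comparison, the bin of chromosome III between 8 and 9 Mb held 159 combined regions, of which 5 were broad. The median over the 101 bins with combined regions was 3, and 12 bins had none. The 13 regions lay between 10002216 and 10859224, measured 1579 to 3340 bp with a median of 1965 bp, and ranked between 52 and 2916 with a median of 251. In all 3 replicates 12 of them were found, and 8 were broken in at least 1. This bin was chosen after its values were seen.

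Along the autosomes the central 50% of each chromosome held 176 of 247 broad regions (71.3%), against 59.4% of all combined regions. On I the share was 79.5% of broad and 57.8% of all combined regions, on II 77.8% and 59.8%, on V 75.4% and 64.6%, and on IV 64.7% and 53.6%. On III it was 58.2% of broad and 60.1% of all combined regions, and on X 49.1% and 48.0%. The share of broad regions was thus above that of all regions on I, II, IV and V, and within 2 percentage points of it on III and X.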

How the data were processed

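The authors deposited 4 GFF3 lists of regions, a combined one and 1 per ChIP replicate. Per the file headers their build is WormBase WS220, and their source column names PeakSeq as the caller. The aligner, caller version, thresholds and pooling were not given in the sources used here. Each deposited list gives start and end positions, from which widths, gaps and overlaps were computed, and the caller's p-value or q-value (at most 0.001), used only for ranks within a list, with ties broken by region number. The series title gives a factor and stage other than UNC-55::GFP at L2, and the sample labels were followed.

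Members, lists and the naming rule were chosen with earlier results of these data known. The rule named the 10 widest broad regions, the best-scored of each chromosome (on X the first by number of 5 tied), the 5 with most pieces, the 3 most and 3 least isolated, the 5 best-scored of those missing from a replicate, and 3 on each side of the width limit. Overlap meant at least 1 bp. Chromosome length was taken as the last end in any list. Members were chosen by a measured value and regions are not samples, so no test was made. Exact 95% Clopper-Pearson intervals of shares treat regions as independent and served only to compare values under other settings. The alternatives changed the width limit, the overlap, the replicates, the neighbours and the distance. Overlap code was tested on simulated data and checked with bedtools 2.31.1. Software was pandas 2.3.3, numpy 2.4.6, matplotlib 3.10.9, SciPy 1.17.1 and Python 3.11.15.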

Additional observations from a re-analysis of the deposited data

How the results depend on the processing

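Of 55 values under other settings, 33 stayed within their interval, within 1 SD of the replicates or, for counts, within 1.5 times, and 22 moved. Reversals were not looked for. Joining replicate regions less than 200 bp apart could change nothing, as no list held neighbours less than 201 bp apart. The number of broad regions was 531 at a limit of 1200 bp, 138 at 2000 bp, 193 in merged replicate regions, and 130, 86 and 23 in replicates 1, 2 and 3. The share found in every replicate was 72.9% at 1200 bp, 92.0% at 2000 bp and 68.9% with the better-scored 50% of each replicate list. It was 40.1% where the midpoint had to be covered and a replicate region had to lie at least 50% inside, and 32.5% where replicates had to cover 50%. With 1 replicate left out it was 81.8 to 94.7%, highest without replicate 3. The share broken in at least 1 replicate was 38.0% at 1200 bp, 74.6% at 2000 bp, 24.5% with the better-scored 50% of each list, 38.1% with regions at most 300 bp apart joined, and 37.4 to 47.7% with 1 replicate left out, which counts fewer replicates by construction. Joining at 300 bp and leaving out chromosome IV were chosen after seeing the data. The median rank was 659 at 1200 bp and 164.5 at 2000 bp. The median gap was 1554.5 bp with combined neighbours limited to the better-scored 50%, against 4689.5 bp for narrower regions, and 2402.5 bp between midpoints. Beyond what each setting changes by construction, the cause was not tested. No paired analysis was possible because the inputs have no list among the files used here and no result comes from a test. The depth is unknown, so a region absent from a replicate list may lie below its threshold.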

Other observations

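In the replicate lists 9 regions of at least 1500 bp had no broad combined region under them, 7 in replicate 1 and 1 each in replicates 2 and 3. The 7 of replicate 1 were 1509 to 2175 bp wide and lay over combined regions of at most 1495 bp, and 2 of them, on chromosome I at 4224605 to 4226213 and 8392463 to 8394637, lay across 2 combined regions each. The ones of replicates 2 and 3 were at the same place near the right end of chromosome I, 15064006 to 15067642 (3637 bp) in replicate 2 and 15064003 to 15067623 (3621 bp) in replicate 3. Its score was listed as 0 in both lists, tied with 1 other region in replicate 2 and 3 others in replicate 3. The last region of chromosome I was at 14975511 to 14976183 in the combined list and at 14975513 to 14976159 in replicate 1, so neither list has a region there. Whether the combined list is complete at this end was not tested.

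Within the run of 4 broad regions on chromosome I at 8573235 to 8582046, the first 3 were separated by 245 bp and again by 245 bp. They were 1649, 1752 and 1571 bp wide with ranks of 3197, 4126 and 1447. The outer ones of these 3 had 1 region each in replicates 1 and 2 and none in replicate 3, while the one between them had no region in any replicate. The last of the run, 2527 bp wide with rank 226, had 3, 1 and 1 pieces in replicates 1, 2 and 3. These values were picked out after they were seen.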
